A study of Mus musculus with 3 samples.

Results

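The Ifi200 family, also called the PYHIN family, is a group of related interferon-inducible genes that lie side by side on mouse chromosome 1. The 8 genes listed for it here are Mndal, Mnda, Ifi202b, Ifi203, Ifi204, Ifi205, Aim2 and Pyhin1. Members were found by the gene name that the array files give each probe, and 5 of the 8 names were found, with 9 of the 56605 probes. The array carries 24842 named genes in all. Mnda and Pyhin1 are the older names of Ifi211 and Ifi209 in RefSeq. An Ifi209 probe was present under that newer name, Ifi203 had 1 probe under a transcript identifier, and Ifi211 was listed only on a probe shared with Ifi205. The family was chosen by name, but with its differences between the Cd74 array and the Empty and Tmem54 arrays known, so every difference below is a description and carries no test.

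RNA came from Hepa1c1c7, a mouse hepatoma cell line that grows in culture. The cells received an Empty, a Cd74 or a Tmem54 vector, and there is 1 Cy3-labelled Agilent array for each vector, with no replicate. Cd74 encodes the invariant chain of MHC class II, and Tmem54 a transmembrane protein. The labels give neither the promoter of the vectors nor the time after transfection. The series description names Trib3, Id3 and Atoh8 as genes that differed with Cd74, and says nothing of this family.

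Cd74 had a processed signal of 26.8 with Empty, 10860 with Cd74 and 22.4 with Tmem54. Tmem54 had a signal of 19750 on its own array, and its probe was not detected above background on the others. Each array thus held high signal for the gene on its label. Of 12 hepatocyte and hepatoma markers, 8 were detected. Afp, a fetal liver protein found in hepatomas, had signals of 25519, 24693 and 26705 on the Empty, Cd74 and Tmem54 arrays, while Ttr, Apoa1, Hnf4a and Fgb were not well above background on any array. Alb, for albumin, had signals of 5727, 2993 and 10261 in the same order. Of 12 macrophage markers 8 were detected, and their summed level, in units of each array's 75th percentile, was 22.3, 21.5 and 21.6. Among the detected ones, Csf1r had signals of 3625.5, 3001.4 and 3811.0 and Cd68 of 1185.9, 1622.5 and 1108.1. Cd14, Itgam and Lyz2 were also above 990 on every array, all by their brightest probes. The other Itgam probe gave 34.9, 29.7 and 32.0, and the other Lyz2 probe 39.7, 40.3 and 50.8. The other Csf1r probe gave 197.2, 197.0 and 215.8. With Empty, the next Cd68 probe gave 330.7 and the other Cd14 probe 1655.4. Adgre1, Clec4f, Tyrobp and Spi1 were not well above background on any array. Ptprc, the pan-leukocyte gene, had 1 bright probe of 7, with signals between 3096 and 3711, and its other probes reached at most 29.2.

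A typical Ifi200 protein joins a pyrin domain, which binds other pyrin domains, to 1 or more HIN domains, which bind DNA. Aim2 detects DNA in the cytosol and builds an inflammasome with the adaptor Pycard, which activates caspase-1. Ifi204 is counted as a mouse counterpart of human IFI16 and can signal from DNA to interferon through Sting1. Many members are themselves switched on by interferon, through STAT and IRF factors that bind the interferon-stimulated response element (ISRE) in their promoters.

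The array measures each gene by hybridization to designed probes of 60 bases, so the results turn on what those probes can read. The first 30 bases of the probes of the members that were detected, and of an undetected Ifi205 probe set against its detected neighbour, read as follows, taken from the array files and written in the sense of the transcript.
Mndal: agcatcaactgtcctgtcaagcacaaaaaa
Ifi204, first probe: agtcgggagaacctctctggaaccatactt
Ifi204, second probe: gtagaagcctattgaaatatcagtcctata
Ifi205, probe that also lists Ifi211: gtcacctctaaatgacagctttagtagtat
Ifi205, probe of Ifi205 alone: tatgagtgaagaaaagactgacgtgaagaa
Aim2, first probe: cgtctgcagtgaccaaggccattaatattt
Aim2, second probe: ctaagaaatcagtgatattggggtatgtga
Ifi209 (Pyhin1): acatgcaggttatcaaagctaagaattgag
On the mm9 build that the file headers name, all lie on chromosome 1. The Mndal probe is at chr1:175787550-175787609 on the minus strand. The Ifi204 probes are at chr1:175677647-175677706 and chr1:175677552-175677611, also on the minus strand, and do not overlap. The Ifi205 probes are at chr1:175942245-175942304 and chr1:175956747-175956806 on the minus strand. The Aim2 probes are at chr1:175385660-175385719 and chr1:175396036-175396095 on the plus strand, and the Ifi209 probe spans chr1:175574960-175576173 on that strand. No annotation of that build was used here, so exon and UTR positions are not given.

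The design gives 3 comparisons, of Cd74 with Empty, of Tmem54 with Empty and of Cd74 with Tmem54. The comparisons with Empty share the Empty array, and those with Cd74 share the Cd74 array. Differences are log2 of the processed signal after each array was centred on its own 75th percentile. The error beside a difference is carried over from the scanner software's error model, was about 0.20 for bright probes, and does not include the spread between cultures. A gene is represented by its brightest detected probe.

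Of the family genes detected under the listed names (Mndal, Ifi204, Ifi205 and Aim2), 2 of 4 were at least 2-fold lower with Cd74 than with Empty, namely Mndal and Ifi204, and 0 were at least 2-fold higher. Of all 15630 genes compared, 1.38% were at least 2-fold lower and 1.03% at least 2-fold higher. The median difference of the 4 family genes was -1.02, against 0.015 for all genes compared. With Tmem54 against Empty, 0 of the 4 passed 2-fold in either direction, where 0.805% of all genes were at least 2-fold lower and 0.522% higher, and their median was 0.06. With Cd74 against Tmem54, the same members, Mndal and Ifi204, were again at least 2-fold lower, beside 1.69% of all genes lower and 1.63% higher. When Ifi209 was counted as Pyhin1, the median over 5 genes was -0.80 for Cd74 against Empty and 0.05 for Tmem54 against Empty. These counts rest on the values that led to the family being described, and nothing is read from their share.

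Mndal, whose human relative MNDA is a nuclear protein of myeloid cells, had processed signals of 1038.5 with Empty, 336.5 with Cd74 and 1087.0 with Tmem54. The Cd74 array was low and the others were alike. The log2 difference was -1.56 ± 0.20 (model error) for Cd74 against Empty, a 2.94-fold lower signal, and 0.06 ± 0.20 for Tmem54 against Empty. It was -1.62 for Cd74 against Tmem54, or 3.06-fold lower. Mndal had only this 1 probe on the array.

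Ifi204, the IFI16-like DNA sensor, was read by a pair of probes. The first gave 1685.0 with Empty, 682.8 with Cd74 and 1850.5 with Tmem54. The second gave 791.4, 307.3 and 781.9 in that order. On both probes the Cd74 array was the low one, by a log2 difference of -1.24 ± 0.20 (2.35-fold) and -1.30 ± 0.20 (2.46-fold) from Empty. Against Tmem54 the probes differed by -1.36 and -1.27. Tmem54 differed from Empty by 0.13 on the first probe and by -0.03 on the second, both under the model error.

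Ifi205, which has been tied to control of the inflammasome adaptor gene, gave a weaker and less certain reading. Its detected probe had signals of 1018.2, 559.5 and 1063.2 on the Empty, Cd74 and Tmem54 arrays. The difference between Cd74 and Empty was -0.80 ± 0.20, or 1.74-fold lower, which is under 2-fold. Tmem54 differed from Empty by 0.05. The accessions that the file lists for this probe belong to both Ifi205 and Ifi211, so the signal cannot be assigned to either. The other Ifi205 probe, which lists Ifi205 alone, was not well above background on any array, with signals of 3.04, 3.25 and 4.33.

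Aim2, the inflammasome sensor, did not share the low Cd74 values. Its first probe gave 1437.6, 1397.6 and 1402.3 on the Empty, Cd74 and Tmem54 arrays, with a Cd74 difference of 0.03 ± 0.20 and a Tmem54 difference of -0.04 ± 0.20. Its second, dimmer probe gave 282.6, 241.4 and 327.2, with differences of -0.16 ± 0.21 and 0.20 ± 0.20. All 4 differences were no larger than the model error, and no probe of Aim2 passed 2-fold in any comparison. The widest gap was -0.36 ± 0.21 between Cd74 and Tmem54 on the second probe.

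Ifi209, listed as Pyhin1 and related to human IFIX, had signals of 128.2, 93.1 and 122.0. Cd74 differed from Empty by -0.39 ± 0.21 and Tmem54 by -0.08 ± 0.21. Ifi202b encodes a family protein without a pyrin domain that inhibits Aim2, and its pair of probes was not well above background on any array, with signals between 2.66 and 3.66. The Ifi203 probe was not well above background either, at 5.59, 6.58 and 11.4. In all, 6 of the 9 probes under the listed names were detected on all 3 arrays and 3 on none.

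**Figure D1:**
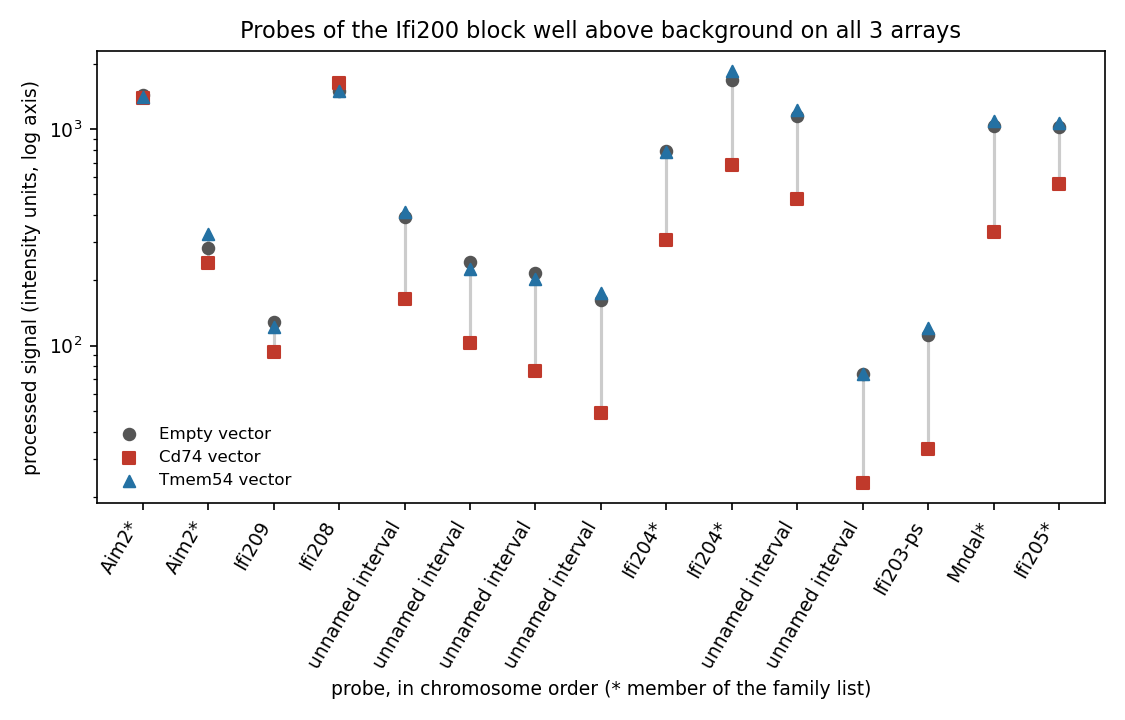
Processed signal (intensity units, log axis) on the Empty (circle), Cd74 (square) and Tmem54 (triangle) arrays for each probe of the Ifi200 block that was well above background on all 3 arrays, in chromosome order. From the first unnamed interval after Ifi208 to Ifi205, the Cd74 square lies below the other symbols, as for Mndal at 336.5 against 1038.5 and 1087.0, while the symbols of the first Aim2 probe overlap.

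The family fills a continuous stretch of the chromosome, which let the listed members be set beside their neighbours. Between the outermost member probes lie 35 probes, 26 of them not under a listed name. In RefSeq, whose build is GRCm38.p6, the order of genes runs Aim2, Ifi206, Ifi214, Ifi213, Ifi209, Ifi208, Ifi207, Ifi204, Ifi203-ps, Mndal, Ifi211, Ifi203, Ifi202b and Ifi205. Of the 19 block probes that could be compared between Cd74 and Empty, 12 were at least 2-fold lower and 0 higher, where 1.24% of all 32103 probes were lower and 0.963% higher. Of these 12, 2 were bounds, because the Cd74 signal was not well above background. With Tmem54 against Empty, 0 of 19 passed 2-fold in either direction, beside 0.767% of all probes lower and 0.617% higher, and the measured differences ran from -0.22 to 0.20. Between Cd74 and Tmem54, 12 of 17 were at least 2-fold lower, beside 1.49% of all probes lower and 1.39% higher. Probes of the block overlap in the transcripts they read and are not separate replicates.

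The probes at least 2-fold lower with Cd74 were all on 1 side of the block. From Aim2 to Ifi208, 4 of 12 probes could be compared, 0 passed 2-fold, and the Cd74 differences ran from -0.39 to 0.20. Past Ifi208, 11 probes were measured on both arrays, and 10 of them were at least 2-fold lower, beside 1.24% of all probes. The Cd74 differences of the 11 ran from -1.68 to -0.80, with a median of -1.30. Among them are both Ifi204 probes and 6 probes that name only a chromosome interval, so they are not separate readings. With normexp background correction, which lifts dim signals by an offset, 5 of the 11 were at least 2-fold lower, and all 11 lay between -1.42 and -0.63. Another 4 probes were bounds, which by construction lie below 0. Of these, 2 passed 2-fold, and the other 2 were detected with Empty alone and carry no reading of Cd74. The place of the division was chosen after these values were seen and was not tested. Ifi208 itself had signals of 1501.8, 1642.5 and 1508.8 on its detected probe, whose accessions also belong to Ifi213, and a Cd74 difference of 0.20 ± 0.20. The probes of Ifi206, Ifi213 and Ifi214, and the other probes of Ifi208, were not well above background on any array.

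The pseudogene Ifi203-ps had signals of 111.8, 33.3 and 120.8 on the Empty, Cd74 and Tmem54 arrays. Its Cd74 difference was -1.68 ± 0.25, or 3.20-fold lower than Empty, and its Tmem54 difference was 0.10 ± 0.21. With normexp correction the Cd74 difference was -0.77 and so under 2-fold.

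The array also holds 9 probes that name only a chromosome interval, inside the block and past Ifi208. Of these, 6 were measured in Cd74 against Empty. All 6 were at least 2-fold lower, from -1.66 to -1.18, beside 1.24% of all probes. Some of the intervals overlap or hold more than 1 of the probes, so these are not 6 separate readings. With normexp correction 2 of the 6 were at least 2-fold lower, and the range was -1.13 to -0.63. The brightest, at chr1:175706660-175706719 on mm9, gave 1145.5, 477.6 and 1227.9, a difference of -1.19 ± 0.20. Another, at chr1:175662473-175662532, gave 161.9, 48.8 and 175.0, a difference of -1.66 ± 0.22. These 6 probes read the minus strand, as Ifi204 and Mndal do. The files give no gene for them, but their places are near known genes. The Ifi203-ps probe lies inside the interval that the brightest probe names, on the same strand. The measured probes outside that interval lie between the Ifi208 and Ifi204 probes. In the RefSeq order Ifi207 has that place, and it too is on the minus strand. Whether these probes read Ifi203-ps or Ifi207 was not tested, so they are not taken as separate transcripts.

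Family members share stretches of sequence, so probes were set against each other base by base. The brightest interval probe and the first Ifi204 probe share a run of 18 bases, shown in capitals in the 30-base stretch of each that holds it.
Ifi204, first probe: gagaacCTCTCTGGAACCATACTTctgaaa
Interval probe: agtcaggagaaaCTCTCTGGAACCATACTT
Only exact runs were searched, and the likeness of these probes goes beyond this run. Most of the bases before it also match, agtcgggagaac in the Ifi204 probe and agtcaggagaaa in the interval probe. RNA bound through this stretch could add to both signals, and how far the probes cross-read was not tested. The second Ifi204 probe gave a like Cd74 difference, -1.30 against -1.24. The only longer run among block probes was 21 bases, between an interval probe and a probe that was not well above background on any array.

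**Figure D2:**
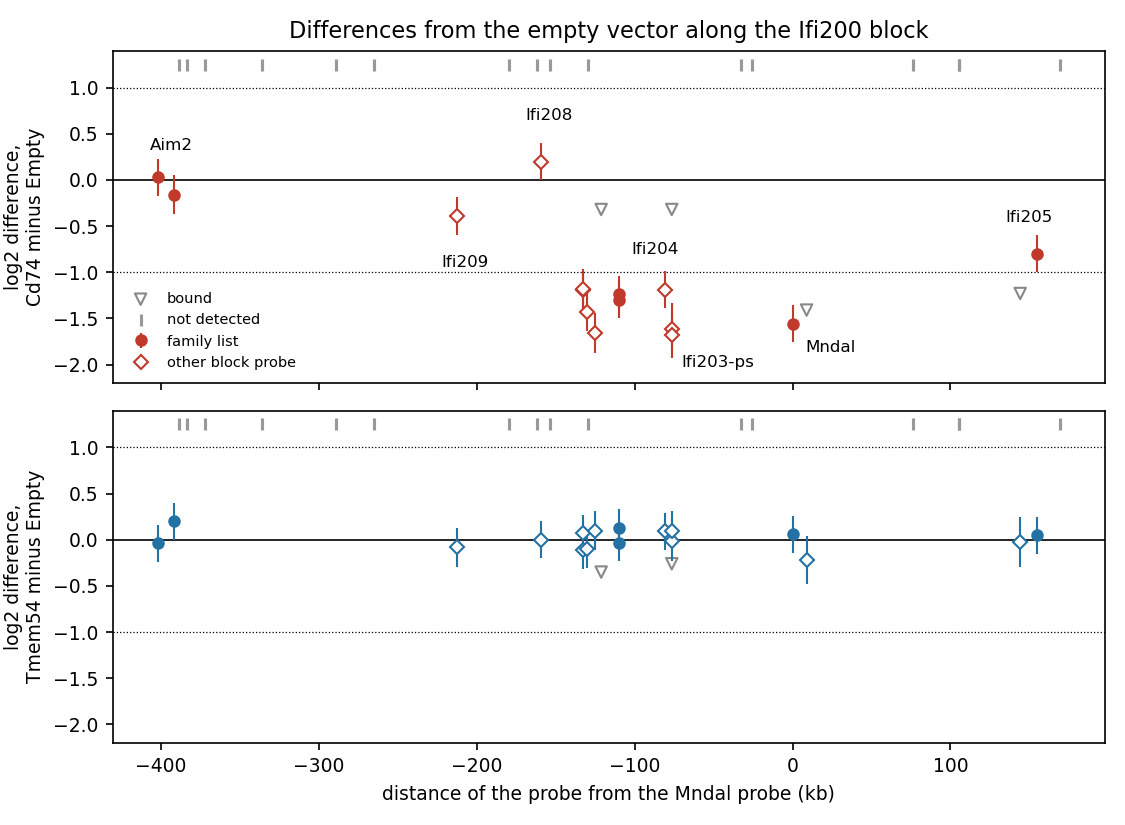
Log2 difference from the Empty array along the block, for Cd74 (upper panel) and Tmem54 (lower panel), against the distance of each probe from the Mndal probe in kb. Filled circles are probes under the listed names and open diamonds other block probes, with model error bars; open triangles are bounds, ticks at the top are probes not detected on either array compared, and dotted lines mark 2-fold. Cd74 differences lie between -0.39 and 0.20 up to Ifi208 and between -1.68 and -0.80 for measured probes past it, while measured Tmem54 differences stay between -0.22 and 0.20.

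Genes outside the block were read for comparison. Fcer1a, for a subunit of the IgE receptor, lies before Aim2 and had a Cd74 difference of -0.03. Its signals were 16.3, 15.3 and 16.0 on the Empty, Cd74 and Tmem54 arrays. The lowest signals well above background were 13.1, 13.5 and 13.9, so a 2-fold drop of Fcer1a could not have been measured. Olfr430, an olfactory receptor gene after Ifi205, had one of -0.15. Flanking probes were taken only if detected on all arrays, so any probe lost on the Cd74 array was left out. The Olfr probes among them were dim, at 68.8 or less with Empty. Of the 10 flanking probes taken, 9 had Cd74 differences between -0.20 and 0.09. The exception was Crp, for C-reactive protein, which lies farther out before the block and was dim, with signals of 46.8 with Empty and 17.3 with Cd74 and a difference of -1.36, and Tmem54 differed from Empty by 0.09.

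Promoter sequences of the family, taken from RefSeq on build GRCm38.p6, were searched for interferon elements because members are known to respond to interferon. The ISRE was searched as GAAA, any 2 bases and GAAA again, the gamma-activated site (GAS) as TTC, any 3 bases and GAA, each on both strands in the 250 bases before the transcription start, and a match is only a description of letters. The 12 block genes in the RefSeq table have 14 promoter entries, as Mndal and Ifi203 have 2 each. The ISRE letters were found in 10 of the 14, and in 2.98% of all 32851 RefSeq promoters. Those of Ifi206, Ifi214, Ifi213, Ifi208, Ifi207, Ifi211 and Ifi205, both of Mndal and 1 of the 2 of Ifi203 held them, and those of Aim2, Ifi209 and Ifi202b did not. Several of these promoters are near-copies of each other, and those of Ifi206 and Ifi213 match at 214 of 217 aligned bases (98.6%). The 10 are thus not separate readings, and their share was not tested against that of all promoters. The GAS letters were found in 1 of the 14, that of Ifi202b, against 7.02% of all promoters. Ifi204 and Ifi203-ps have no promoter entry.

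The windows around the match show how alike the promoters are, with the ISRE letters in capitals. The Mndal window covers chr1:173880189-173880248, the Ifi205 window chr1:174031855-174031914 and the Ifi211 window chr1:173913049-173913108, all on the minus strand. The Ifi208 window covers chr1:173673582-173673641 on the plus strand.
Mndal: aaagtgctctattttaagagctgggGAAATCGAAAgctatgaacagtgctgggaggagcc
Ifi205: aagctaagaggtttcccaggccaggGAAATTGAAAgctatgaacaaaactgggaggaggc
Ifi211: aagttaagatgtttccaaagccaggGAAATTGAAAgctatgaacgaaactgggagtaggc
Ifi208: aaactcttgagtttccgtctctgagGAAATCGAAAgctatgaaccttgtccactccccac
In Mndal the match runs from 36 to 27 bases before the start, in Ifi211 from 37 to 28, in Ifi208 from 58 to 49 and in Ifi205 from 134 to 125. Mndal and Ifi208 hold the same 10 letters, as do Ifi206, Ifi214, Ifi213, Ifi207 and 1 promoter of Ifi203. That Ifi203 window equals the Mndal window over all 60 bases, and the Ifi203 probe was not well above background on any array. The Cd74 differences of Mndal and Ifi208 were -1.56 and 0.20, the latter on the probe that also lists Ifi213. Whether the letters bear on the signals was not tested. The promoters of Ifi211 and Ifi205, genes that share a detected probe, match at 141 of 153 aligned bases (92.2%). Those of Ifi208 and Ifi213, which also share a detected probe, match at 233 of 235 (99.1%). Ifi206 and Ifi208 share a probe that was not detected, and their promoters match at 231 of 232 (99.6%).

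Ifi214 and Ifi209 have promoters that match at 237 of 250 bases (94.8%), yet they differ in the ISRE letters. The Ifi214 window covers chr1:173536002-173536061 on the minus strand and the Ifi209 window chr1:173630755-173630814 on the plus strand.
Ifi214: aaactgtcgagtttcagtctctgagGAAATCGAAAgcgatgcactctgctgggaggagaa
Ifi209: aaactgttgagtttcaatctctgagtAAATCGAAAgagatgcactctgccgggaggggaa
Counted from 1 at the 5′ end of the motif, Ifi209 carries G1T against the searched letters. The Ifi209 probe was detected on all arrays, and the Ifi214 probe, at 8.30, 6.92 and 5.82, on none.

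The family acts within the DNA sensing pathway, whose other genes were taken from a list of 20. Against Empty, 0 of 20 were at least 2-fold lower or higher on either array, with a median of -0.01 for Cd74 and -0.02 for Tmem54. Of all genes, 1.38% were lower and 1.03% higher with Cd74, and 0.805% and 0.522% with Tmem54. At such shares a count of 0 in 20 says little of the pathway. Sting1, the adaptor that carries signals from Ifi204, had signals of 8343.1, 7682.6 and 8526.6, a Cd74 difference of -0.05. Irf3, the transcription factor downstream of it, differed by 0.04. Cgas, the enzyme that makes the second messenger for Sting1, had 39.5, 35.7 and 26.7, with a Cd74 difference of -0.08 and a Tmem54 difference of -0.58. The kinase gene Ikbke differed by -0.33 and -0.53, and the nucleic acid sensor gene Zbp1 by -0.22 and -0.45. Ifnb1, for interferon beta, had signals of 24.9, 5.60 and 18.7, of which that on the Cd74 array was not well above background, so its Cd74 difference is a bound of -0.82.

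The inflammasome list, which holds the partners of Aim2, had 13 of 18 genes that could be compared, and 0 of 13 passed 2-fold in either direction on either array. Beside 1.38% of all genes lower and 1.03% higher with Cd74, and 0.805% and 0.522% with Tmem54, this count says little of the list. Pycard, the adaptor that Aim2 recruits, had signals of 155.9, 147.1 and 175.9, a Cd74 difference of -0.02. Casp1, for caspase-1, had 3653.1, 3807.8 and 3288.2, a difference of 0.13. The largest measured differences from Empty were 0.43 on the Cd74 array for Txnip, a thioredoxin inhibitor, 0.42 for the sensor gene Naip2, and -0.34 on the Tmem54 array for Casp4. Gsdmd, for the pore protein that caspase-1 cuts, differed by -0.29 with Cd74. Il1a and Il1b, for the cytokines released downstream, were not well above background on any array.

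Interferon signalling genes were read because they drive the family. Of 17 receptor and signalling genes, 1 was at least 2-fold lower with Cd74 and 1 with Tmem54, in both cases Irf7, an interferon-induced transcription factor. Of all genes, 1.38% were lower with Cd74 and 0.805% with Tmem54, and nothing is read from a count of 1. Irf7 had signals of 622.7, 221.5 and 271.3, differences of -1.42 for Cd74 and -1.21 for Tmem54. Jak2, a receptor-associated kinase, differed by -0.59 and 0.05, and Irf8 by -0.57 and 0.07. Irf9, the DNA-binding partner of the STAT proteins, differed by -0.54 and -0.65. The list medians were -0.12 and -0.05.

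Interferon-stimulated genes outside the family were set beside it. Of 27 that could be compared, 7 were at least 2-fold lower with Cd74 (median -0.48), beside 1.38% of all genes, and 4 with Tmem54 (median -0.36), beside 0.805%. None (0) was at least 2-fold higher with either, beside 1.03% of all genes with Cd74 and 0.522% with Tmem54. Between Cd74 and Tmem54 themselves, 1 of 26 was at least 2-fold lower, beside 1.69% of all genes, and the median was -0.08. Nothing is read from that count of 1. Rtp4 had signals of 657.5, 215.5 and 235.6, differences of -1.54 and -1.49. Oas2, an antiviral enzyme gene, had differences of -1.33 and -1.46, and the GTPase gene Gbp3 of -1.19 and -1.17. Xaf1, a gene of cell death control, gave -0.98 and -1.03. For each of these 4 genes the Empty array was the high one. Isg15, a ubiquitin-like modifier, gave 1040.6, 404.7 and 569.9, differences of -1.29 and -0.88, while Oasl2 gave -1.09 and -0.96 and Gbp2 -1.01 and -0.81. Mx2 was the 1 gene at least 2-fold lower with Cd74 than with Tmem54, as a bound of -1.09. Ddx58, an RNA sensor gene picked out after its values were seen, gave 2708.6, 1741.0 and 2519.2, differences of -0.57 and -0.11, and Eif2ak2, for an antiviral kinase, likewise gave -0.42 and -0.03. Between Cd74 and Tmem54, Mndal differed by -1.62 and Ifi204 by -1.36. The Cd74 and Tmem54 differences share the Empty array, and the difference between the gene groups was not tested.

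**Figure D3:**
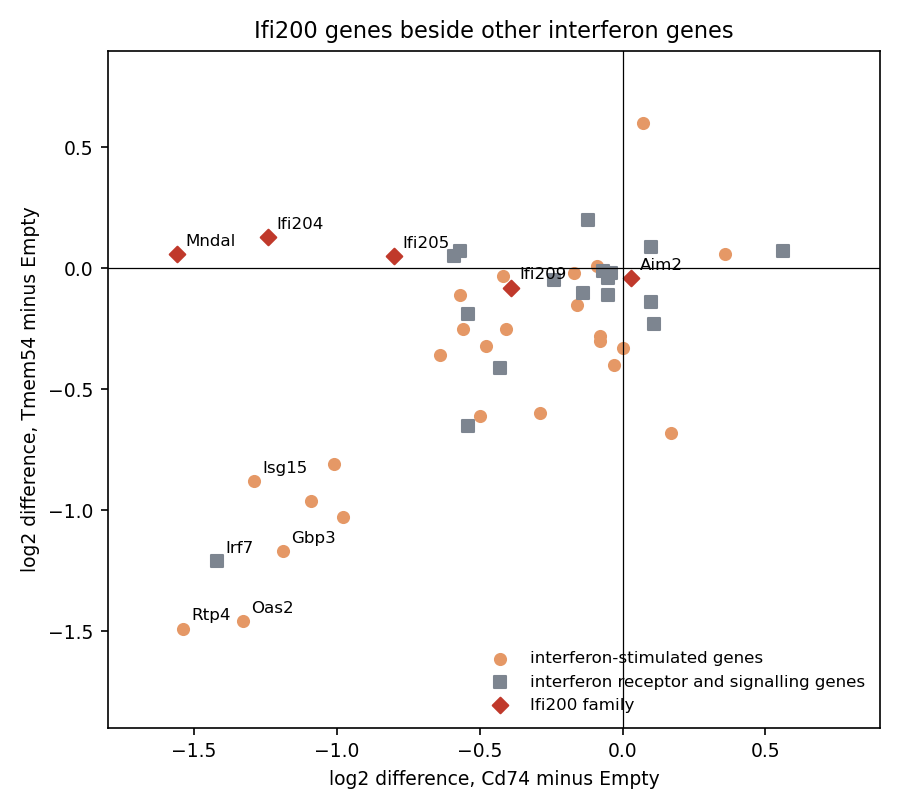
Log2 difference of Tmem54 from Empty (vertical axis) against that of Cd74 from Empty (horizontal axis) for Ifi200 genes (diamonds), interferon-stimulated genes (circles) and interferon receptor and signalling genes (squares), genes measured on all 3 arrays only. Mndal and Ifi204 lie far left at Tmem54 differences of 0.06 and 0.13, while Rtp4, Oas2, Gbp3 and Irf7 lie at the lower left; both axes share the Empty array.

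Ifi200 proteins also bind regulators of growth and differentiation, and a list of 16 such partners had 15 genes that could be compared. Id2 and Id3, for inhibitors of differentiation, were the 2 genes at least 2-fold lower with Cd74, and 0 passed 2-fold with Tmem54. Of all genes, 1.38% were lower with Cd74, and with Tmem54 0.805% were lower and 0.522% higher. Id2 had signals of 4185.2, 1505.1 and 4405.1, a Cd74 difference of -1.41 and a Tmem54 difference of 0.07. Id3 had 4812.9, 1968.4 and 5593.2, with -1.22 and 0.21, and is among the genes that the series description names. Id1 differed by -0.94 with Cd74 and the p53 gene Trp53 by -0.61. The list median was -0.20 for Cd74 and 0.01 for Tmem54.

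**Figure D4:**
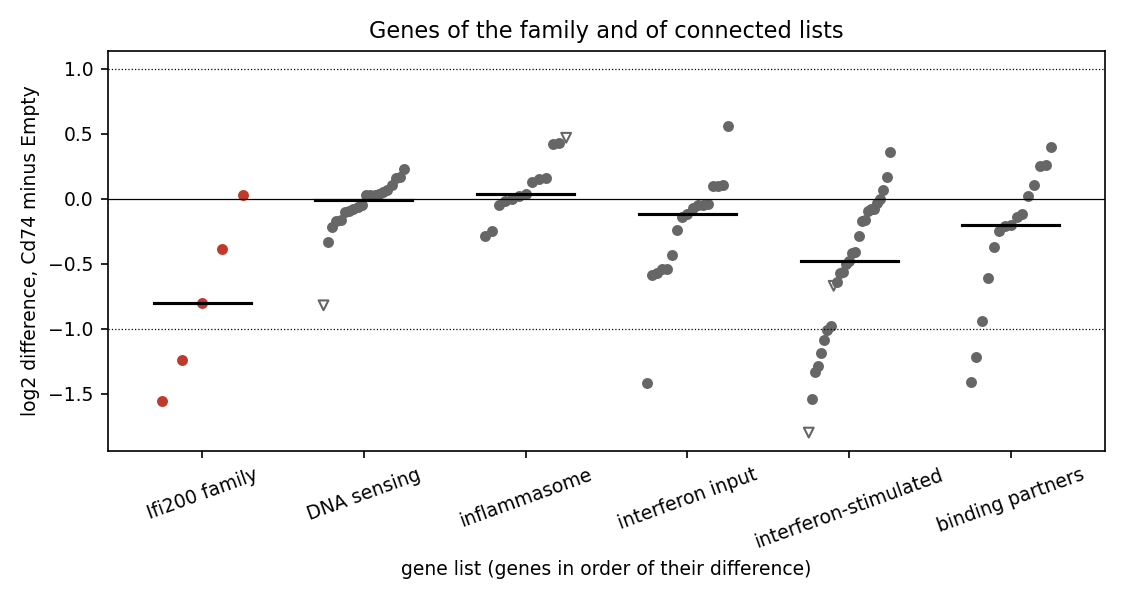
Log2 difference of Cd74 from Empty for each gene of the family (red) and of 5 connected lists (grey), 1 point per gene in order within its list, with open triangles for bounds, bars at list medians and dotted lines at 2-fold. The family median, counting Ifi209, is -0.80, and those of DNA sensing and inflammasome genes are -0.01 and 0.04.

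To find genes with a like pattern, the 3 values of each of 9902 bright genes were centred on the gene's own mean and ranked by Euclidean distance on the log2 scale. For Aim2, the member with the highest mean signal, the nearest were Pak2, B3gat3, Bag3, Mybl2 and Zbtb5, at distances of 0.001 to 0.002. Such flat patterns are common, and these names say little of Aim2. For Mndal, chosen after its values were seen, the nearest were Id2 at 0.119, AA684185 at 0.205, Ifi27l2b at 0.219, Ifi27l2a at 0.235 and Id3 at 0.238. Ifi27l2a and Ifi27l2b are interferon-inducible genes outside the block. Ifi27l2a had signals of 1407.1, 571.8 and 1587.1, a Cd74 difference of -1.23 and a Tmem54 difference of 0.17. Over 3 arrays the likeness describes these arrays only.

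Other markers moved beside the family on the same arrays. The summed level of 6 stellate cell and fibroblast markers was 34.2 with Empty, 25.4 with Cd74 and 37.5 with Tmem54, and that of the hepatocyte and hepatoma markers was 734, 706 and 764. Most of the hepatocyte and hepatoma sum came from the keratin genes Krt18 and Krt8, at 273830 and 138516 with Empty, so it hardly follows Alb. Between Cd74 and Tmem54, the marker genes past 2-fold were Alb at -1.70, the collagen genes Col1a1 and Col3a1 at -1.08 each, and the T cell gene Cd3d at -1.10. Col3a1 and Cd3d were dim and each detected by 1 probe. Their signals on the Empty, Cd74 and Tmem54 arrays were 67.1, 43.2 and 96.5 for Col3a1 and 40.1, 25.8 and 58.4 for Cd3d. The part of these marker genes in the Ifi200 differences was not tested. The summed level of the 3 B cell markers detected of 5 was 0.106, 0.125 and 0.107, and that of the 3 T and NK cell markers detected of 6 was 2.93, 2.89 and 2.91. Most of the T and NK cell sum came from 1 bright Cd4 probe of 3, at 1299.0 with Empty. Pecam1 was the 1 endothelial marker of 4 detected, at 0.0738, 0.0501 and 0.0583. Fewer cells with a transcript and less of it per cell cannot be told apart in bulk RNA, and with 1 array a vector neither can the vector and the culture it was put into.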

How the data were processed

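Per the file headers and the submitters' processing notes, the authors scanned 3 one-colour arrays with Agilent Feature Extraction 12.0.3.1, and the deposited processed signal is an intensity on a linear scale, detrended within the array both spatially and multiplicatively, with an error estimate per spot and a flag for spots well above background. All 3 arrays lie on 1 slide, which therefore cannot differ between vectors. Here control spots and spots with outlier flags (119 to 135 per array) were left out, spots of a probe were averaged, and log2 intensity was centred on each array's 75th percentile (673.8, 642.8 and 677.7 for Empty, Cd74 and Tmem54). Between 33049 and 33896 spots per array were well above background and 0 were saturated. Where 1 of the arrays compared was not well above background, the difference is a bound against the lowest such signal. Genes past 2-fold were counted, with no test. The members and gene lists were chosen with earlier results of these data known. Named genes were all members and block genes, list genes past 2-fold or among the 4 largest differences of a list, and the genes nearest in pattern. Sting1, Irf3, Pycard, Casp1, Ifnb1, Il1a, Il1b, the flanking genes, and marker genes under 2-fold or undetected were named for their role or place, and Ddx58 and Eif2ak2 after their values were seen, outside that rule. Normexp correction used limma 3.58.1 (R 4.3.3), and counting, in Python 3.11.15, was tested on simulated data. A deposited table of values, linear and uncentred, holds the same signals, each array divided by its own constant. Alternatives covered scaling, background, dim probes, probe choice and outlier spots.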

Additional observations from a re-analysis of the deposited data

How the results depend on the processing

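No paired analysis was possible because each vector has 1 array. The 20 differences past 2-fold of block probes measured on all 3 arrays kept their direction under each of 6 alternatives (3 other scalings, normexp correction, outlier spots kept, and the deposited value table), and all stayed past 2-fold except under normexp, where 10 did. The 4 differences past 2-fold that were bounds were not recomputed. Under normexp Mndal differed by -1.42 between Cd74 and Empty, the Ifi204 probes by -1.22 and -1.17, and Ifi205 by -0.77. Only Ifi204 and Aim2 have a next-brightest detected probe. With it 1 of 2 members was at least 2-fold lower on the Cd74 array, with a median of -0.73 against Empty, and 1 of 2 against Tmem54, with a median of -0.82. Over all genes, normexp left 57 higher and 62 lower for Cd74 against Empty, 31 and 34 for Tmem54 against Empty, and 94 and 105 for Cd74 against Tmem54. Requiring detection on both arrays gave 63 and 127, 31 and 60, and 140 and 170 in that order, bright genes 26 and 31, 3 and 12, and 57 and 69, and next-brightest probes 49 and 49, 30 and 37, and 64 and 67. The last 3 settings test fewer genes by construction. Normexp adds an offset of 50, which by construction narrows the log2 differences of dim signals, and its share in the lower counts was not tested. The number of arrays, 1 per vector, limits the precision.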
